A study of Danio rerio with 12 samples.

Results

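The genes described here encode the subunits of the proteasome and the enzymes that activate and carry ubiquitin. They were chosen by symbol: genes whose platform symbol begins with psma to psmg, with ube2, with uba and a digit, or with uchl, with 1 probe set a gene, that of the highest mean log2 signal over the 12 arrays. This gave 84 of the 8793 genes that the annotated probe sets represent. They comprise 8 psma, 12 psmb, 7 psmc and 14 psmd genes, 4 genes of activators and inhibitors (psme and psmf), 3 psmg genes, 4 uba genes, 27 ube2 genes and 3 uchl genes. The remaining 2, psmc3ip and psme3ip1, share only the prefix: psmc3ip is a recombination factor and psme3ip1 an interaction partner of an activator subunit.

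The arrays measured RNA of GFP-positive cells sorted from zebrafish embryos at 48 hours after fertilization, and the series asks which endothelial genes miR-126 regulates. The cells were marked by flk1:GFP, a reporter active in endothelium that all embryos had. There were 3 groups of 4 biological replicates: control embryos, embryos given miR-126 MO-1 and embryos given miR-126 MO-2. These antisense morpholinos, called independent in the series' design, prevent maturation of the miR-126 precursor and were injected at 4 ng into one-cell embryos. Control replicate 1 was uninjected by its label, the other control labels mention no injection, and a control oligonucleotide is named nowhere, so that morpholino and injection cannot be told apart.

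The ubiquitin-proteasome system removes proteins in steps. An activating enzyme (uba) charges ubiquitin, a conjugating enzyme (ube2) receives it, and a ligase transfers it to the protein to be degraded. The 26S proteasome is built from a barrel of alpha (psma) and beta (psmb) subunits, which cut the protein, and a cap of ATPases (psmc) and other subunits (psmd), which bind, unfold and deubiquitinate it. Its subunits are made in most cells, and endothelial cells use the same machinery as other cells.

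Array medians lay between 6.80 and 6.86 log2 units, and correlations between arrays ran from 0.944 to 0.992 over 15502 probe sets, which are not independent replicates. Of 30 endothelial marker genes 9 were measured, kdrl, tie1, tek, erg and plvapb among them, and their summed level, the mean of log2 values centred on each gene, was -1.05 to -0.56 in the 3 arrays numbered 4 against -0.09 to 0.58 in the other 9. The 23 skeletal muscle markers had a summed level of 0.59 to 1.15 in the arrays numbered 4 and -1.68 to 0.80 in the others. For 20 epidermal markers it was 0.41 to 0.55 in the arrays numbered 4 and -0.59 to 0.38 in the others, without overlap. Arrays with the same number deviated together, and the labels do not say what the number stands for. The number of arrays limits the precision: comparing 4 arrays with 4 gave 95% intervals with a median half-width of 0.40 log2.

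The proteasome genes were high and low in the same arrays. MO-1 replicate 3 was the highest of the 12 arrays for 29 of the 41 psma, psmb, psmc and psmd genes (the 26S genes, 70.7%, against 17.7% of all genes), and MO-2 replicate 4 was the lowest for 21 of them (51.2%, against 18.5% of all genes). Their summed level was -0.12, -0.02, 0.26 and -0.04 in control replicates 1 to 4, -0.02, -0.12, 0.44 and -0.04 in MO-1 replicates 1 to 4, and -0.04, -0.02, 0.02 and -0.30 in MO-2 replicates 1 to 4. The groups overlapped, and in each group the array numbered 3 was the highest. For the 27 ube2 genes MO-1 replicate 3 was the highest array in 6 (22.2%) and MO-2 replicate 4 the lowest in 4 (14.8%), while MO-2 replicate 4 was also the array most often the highest, in 7 (25.9%).

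**Figure D1:**
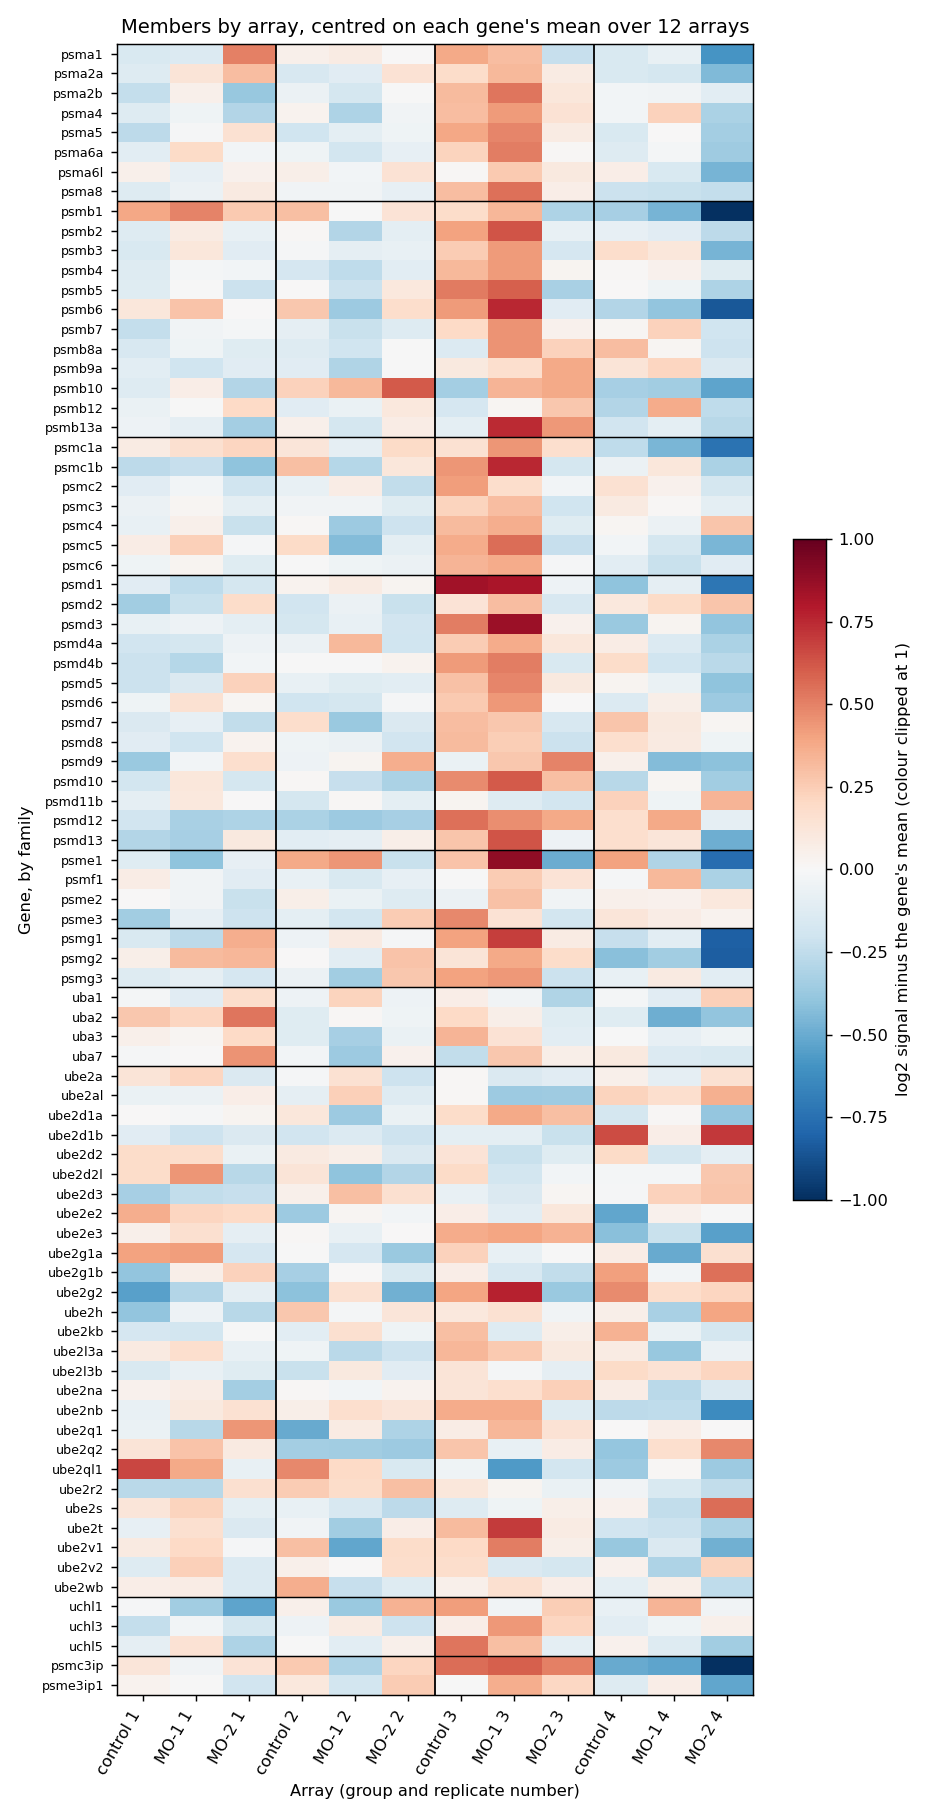
Log2 signal of the 84 genes (rows, by family) on the 12 arrays (columns, ordered by replicate number and then by group), as the difference from each gene's mean over the arrays, with the colour clipped at 1. Most psma, psmb, psmc and psmd rows are high in MO-1 replicate 3, the highest array for 29 of 41, and low in MO-2 replicate 4, the lowest for 21 of 41.

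The first question was whether either morpholino changed these genes. None of the 84 passed the test for MO-1, for MO-2, for the mean of both or between the morpholinos (limma, Benjamini-Hochberg over 15502 probe sets, threshold 0.05), where the background was 0% of all genes in each comparison. At an unadjusted p under 0.05 limma gave 0 members with MO-1 (1.11% of all genes), 2 with MO-2 (psme1 and ube2d2, 2.16% of all genes), 1 with both together (ube2d2, 1.8%) and 1 between the morpholinos (psmb3, 0.625%). With a block for the replicate number, the counts were 0 (2.99% of all genes), 3 (psmb1, psme1 and ube2ql1, 6.61%), 0 (5.69%) and 3 (psmb3, psme1 and psmd3, 2.63%), again with 0 members after adjustment. The lowest adjusted p of a member with the block was 0.6986, for psme1 with MO-2.

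Most values with MO-2 were small and lay below control, and those with MO-1 lay on both sides. With MO-2, 62 of 84 genes had a lower mean than control (73.8%, against 46.7% of all genes), and the median difference was -0.09 log2 against 0.01 for all genes. With MO-1, 43 of 84 had a lower mean, and the median was -0.01 against 0.02 for all genes. Over the 41 psma to psmd genes the median was -0.11 with MO-2 and 0.03 with MO-1. For both morpholinos together the median over the 84 genes was -0.03 against 0.02 for all genes, and 55 were lower. Medians this near to 0 turned sign with 1 array left out: the MO-1 median of the 26S genes ran from -0.09 (without MO-1 replicate 3) to 0.13, that of the 84 genes from -0.09 to 0.08, and those for both morpholinos from -0.09 to 0.05 and from -0.09 to 0.01. The comparisons share the control arrays. Since RNA was taken from sorted cells in bulk, fewer cells of a type and less RNA per cell cannot be told apart.

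**Figure D2:**
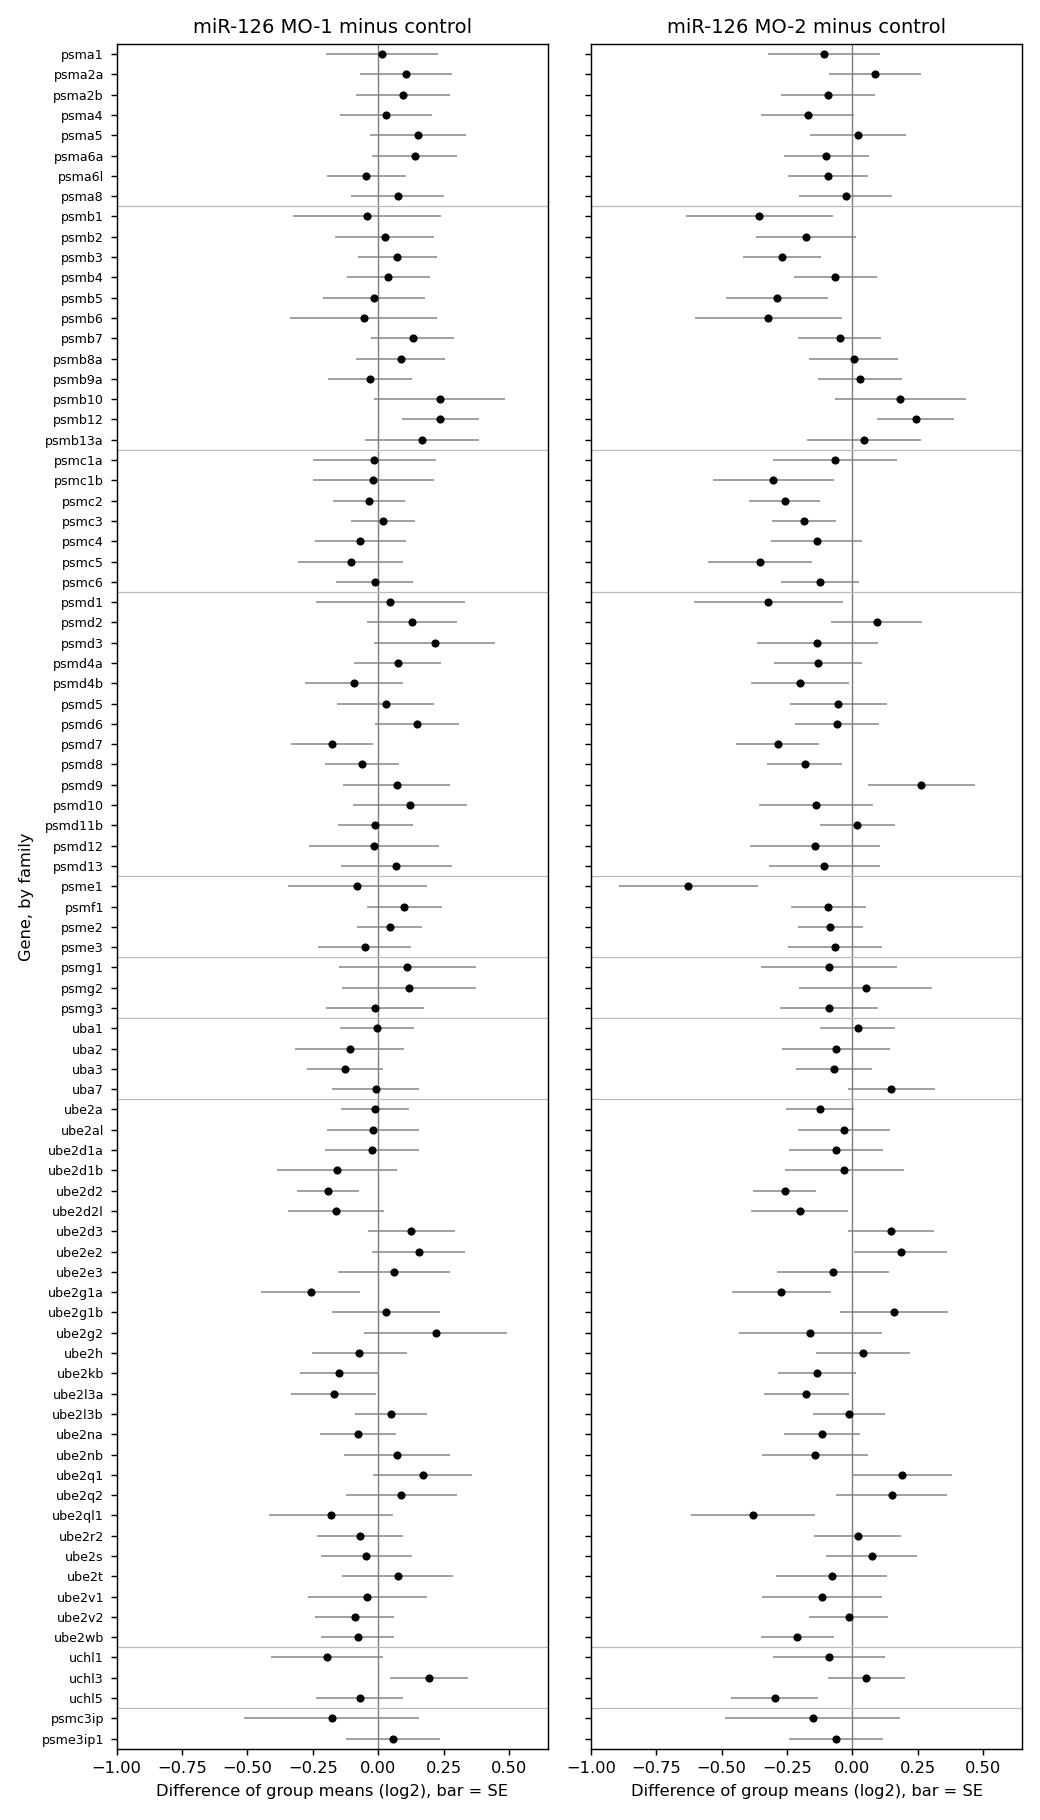
Difference of group means from control in log2 units (points) with limma's standard error (bars) for each of the 84 genes with MO-1 (left) and MO-2 (right), 4 arrays a group. No gene passed the adjusted threshold; 43 points lie below 0 on the left and 62 on the right, where psme1, at -0.63, is the farthest from 0.

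The alpha subunits form the outer rings of the barrel and its gate. With MO-2, 6 of 8 psma genes had lower means, with a median of -0.09, and with MO-1 1 of 8 did, with a median of 0.08. In replicates 1 to 4, the order used throughout, psma4 measured 9.61, 9.78, 10.05 and 9.72 in control, 9.70, 9.44, 10.17 and 9.97 with MO-1, and 9.45, 9.71, 9.89 and 9.43 with MO-2. Each MO-2 array of psma4 lay below the control array of its number, but the groups overlapped. The difference was -0.17, with an SE of 0.18 without and 0.14 with the block for the replicate number. It did not pass in either fit. psma5 was 10.17 ± 0.30 (SD, n = 4) in control arrays, 10.32 ± 0.27 in MO-1 arrays and 10.19 ± 0.22 in MO-2 arrays.

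The beta subunits hold the cutting sites: psmb5, psmb6 and psmb7 are the catalytic subunits of the constitutive barrel, and psmb8, psmb9 and psmb10 replace them in the immunoproteasome, the form induced by interferon. All 7 constitutive genes psmb1 to psmb7 had lower means with MO-2, with a median of -0.27, while all 5 genes of the immunoproteasome type (psmb8a, psmb9a, psmb10, psmb12 and psmb13a) had means above control, with a median of 0.04. Whether these sets differ was not tested. psmb8a, psmb13a, psmb9a, psmb12 and psmb10 had mean signals of 5.25, 5.47, 6.06, 6.07 and 7.74, against 9.35 to 11.74 for psmb1 to psmb7. The lower quartiles of the arrays were 5.39 to 5.61, so psmb8a and psmb13a were dim. With MO-2 psmb8a, psmb9a and psmb13a differed by only 0.005, 0.03 and 0.04 (SE 0.17, 0.16 and 0.22). In the RefSeq annotation psmb13a, psmb8a, psmb12 and psmb9a stand next to each other in the genome.

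Among the catalytic subunits, psmb5 measured 9.23, 9.35, 9.86 and 9.35 in control, 9.35, 9.13, 9.94 and 9.31 with MO-1, and 9.13, 9.45, 9.02 and 9.03 with MO-2. Its MO-2 arrays overlapped control through replicate 2, and the difference was -0.29 (SE 0.19). psmb6 measured 10.97, 11.13, 11.28 and 10.57 in control, 11.15, 10.50, 11.62 and 10.47 with MO-1, and 10.87, 11.03, 10.75 and 10.01 with MO-2. Every MO-2 array of psmb6 lay below the control array of its number, and in each group the array numbered 4 was the lowest. The groups overlapped, with MO-2 replicate 2 above control replicates 1 and 4. The difference was -0.32 (SE 0.28, and 0.19 with the block). psmb7 differed by -0.05 (SE 0.16) with MO-2.

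psmb1, a non-catalytic beta subunit, measured 12.13, 12.04, 11.92 and 11.41 in control, 12.24, 11.74, 12.08 and 11.28 with MO-1, and 12.01, 11.88, 11.44 and 10.75 with MO-2. The array numbered 4 was the lowest in all 3 groups, and the difference with MO-2 was -0.36 (SE 0.28, and 0.15 with the block). It did not pass with the block either (limma, adjusted p = 0.7893). psmb3, another non-catalytic subunit, was 10.90 ± 0.18 (SD, n = 4) in control arrays, 10.98 ± 0.21 in MO-1 arrays and 10.63 ± 0.18 in MO-2 arrays. It had the smallest p between the morpholinos, with -0.34 (SE 0.15), and did not pass after adjustment. psmb12 measured 5.998, 5.95, 5.90 and 5.77 in control, 6.06, 5.998, 6.08 and 6.43 with MO-1, and 6.27, 6.17, 6.34 and 5.82 with MO-2. Each MO-1 and MO-2 array of psmb12 lay above the control array of its number, with overlap of the groups, and the differences of 0.24 with each morpholino (SE 0.15) did not pass.

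The psmc genes encode the ring of ATPases that unfolds proteins and threads them into the barrel. All 7 had lower means with MO-2, with a median of -0.18, and 6 of 7 with MO-1, with a median of -0.02. psmc3 measured 9.63, 9.66, 9.92 and 9.78 in control, 9.71, 9.65, 9.998 and 9.70 with MO-1, and 9.59, 9.57, 9.49 and 9.60 with MO-2. The MO-2 arrays of psmc3 lay below all arrays of both other groups, although the difference from control was only -0.18 (SE 0.12). psmc5 had the largest mean difference of the family with MO-2, at -0.35 (SE 0.20), and psmc2 differed by -0.26 (SE 0.14).

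The psmd genes encode the rest of the cap, with scaffolds, ubiquitin receptors and a partner of the cap's deubiquitinase, and, by symbol, also the assembly chaperones psmd5, psmd9 and psmd10. With MO-2, 11 of 14 had lower means, with a median of -0.13, and with MO-1 5 of 14, with a median of 0.06. psmd7, the partner of the deubiquitinating subunit, was 8.87 ± 0.21 (SD, n = 4) in control arrays, 8.70 ± 0.28 in MO-1 arrays and 8.59 ± 0.11 in MO-2 arrays. psmd1, a large scaffold, measured 10.09, 10.24, 11.04 and 9.79 in control, 9.95, 10.28, 11.02 and 10.10 with MO-1, and 10.02, 10.23, 10.15 and 9.47 with MO-2. The arrays numbered 3 of control and MO-1 stood above all others for psmd1, and MO-2 replicate 3 did not. This left a difference of -0.32 with MO-2 (SE 0.28, and 0.17 with the block). psmd9 had the largest positive MO-2 value of the 84 genes, at 0.26 (SE 0.20).

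Of the genes that regulate or assemble the barrel, psme1 had the largest difference of the 84 with MO-2. psme1 encodes an alpha subunit of the activator that opens the barrel without ATP, known in mammals as an interferon-induced gene. It measured 7.70, 8.21, 8.11 and 8.22 in control, 7.42, 8.26, 8.71 and 7.52 with MO-1, and 7.74, 7.60, 7.33 and 7.06 with MO-2. MO-2 replicate 1 lay above control replicate 1 and the other MO-2 arrays lay below all control arrays, so the groups overlapped by that pair. The difference was -0.63 (SE 0.27, 95% interval -1.20 to -0.06, unadjusted), and did not pass after adjustment. Its partner psme2 differed by -0.08 (SE 0.13), psme3 by -0.07 (SE 0.18) and the inhibitor psmf1 by -0.09 (SE 0.14). The assembly chaperones psmg1, psmg2 and psmg3 differed by -0.09, 0.05 and -0.09 with MO-2.

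The activating enzymes lay close to control. uba1, which charges ubiquitin, differed by 0.02 with MO-2 (SE 0.14), and uba2, uba3 and uba7, which serve SUMO, NEDD8 and ISG15, differed by -0.06, -0.07 and 0.15 (SE 0.21, 0.15 and 0.17). uba7 was dim, with a mean signal of 5.28 against lower quartiles of the arrays of 5.39 to 5.61. With MO-1 all 4 had lower means than control, with uba3 the farthest at -0.13 (SE 0.15).

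Of the 27 conjugating enzymes, 19 had lower means with MO-2 and 17 with MO-1, with medians of -0.08 and -0.04. ube2d2, a conjugating enzyme that works with many ligases, measured 10.50, 10.41, 10.45 and 10.51 in control, 10.49, 10.37, 10.10 and 10.14 with MO-1, and 10.25, 10.17, 10.19 and 10.22 with MO-2. Its MO-2 arrays lay below all control arrays and its MO-1 arrays below the control array of the same number, with overlap. The difference was -0.26 with MO-2 (SE 0.12), -0.19 with MO-1 (SE 0.12) and -0.23 with both together, and none passed after adjustment. ube2d2 also had the smallest spread of the 84 genes over the 12 arrays, 0.41 log2, against a median of 0.83 for the 84 and 0.86 for all genes. Its relative ube2d3 was higher than the same-numbered control in each pair with MO-2, at 0.15 (SE 0.17).

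ube2ql1 had the largest difference among the ube2 genes with MO-2, at -0.38 (SE 0.24), and measured 8.22, 8.04, 7.51 and 7.19 in control, 7.94, 7.75, 6.99 and 7.57 with MO-1, and 7.48, 7.40, 7.37 and 7.19 with MO-2. Control and MO-2 met at replicate 4, and the difference did not pass with the block (limma, adjusted p = 0.8145). ube2g1a, of a family that acts on proteins of the endoplasmic reticulum, differed by -0.26 with MO-1 (SE 0.19) and -0.27 with MO-2 (SE 0.19), and ube2g2 by 0.22 and -0.16 (SE 0.27). The ubiquitin hydrolases gave -0.09 for uchl1, a neuronal enzyme in mammals, 0.05 for uchl3 and -0.30 for uchl5, which binds the proteasome, with MO-2 (SE 0.21, 0.15 and 0.17).

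**Figure D3:**
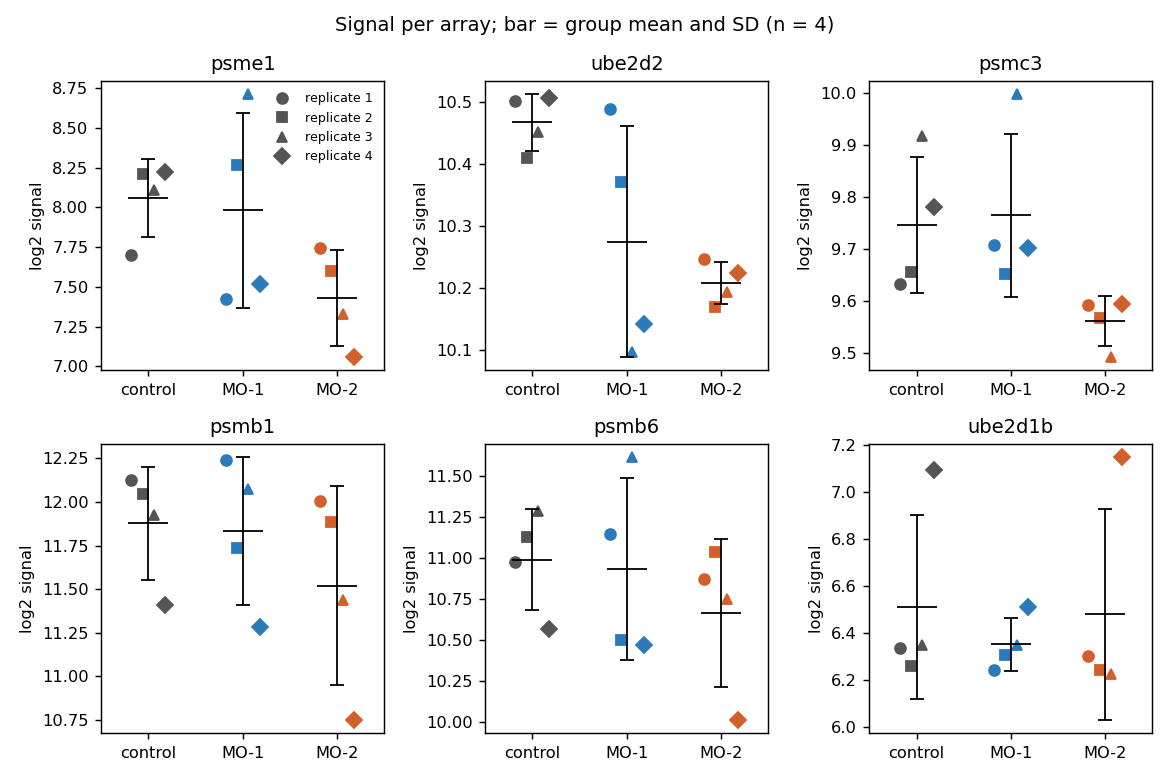
Log2 signal of psme1, ube2d2, psmc3, psmb1, psmb6 and ube2d1b on each array (points, with a shape for each replicate number) with the group mean and SD (bars, n = 4). The MO-2 points of ube2d2 (10.17 to 10.25) and psmc3 (9.49 to 9.60) lie below all control points, and the replicate 4 points of psmb1 and psmb6 are the lowest of their group.

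Counts of groups that did not overlap were small. MO-2 lay below control with no overlap for 2 members, psmc3 and ube2d2 (0.944% of all genes), and above it for 0 (1.06%). MO-1 lay below control for 0 members (0.33%) and above for 0 (0.625%). MO-2 lay below MO-1 for 1 member, psmc3 (0.307%), and above for 0 (0.216%).

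Arrays can be paired by their number. MO-2 was lower than the control of its number in 4 of 4 pairs for 16 of 84 members (7.06% of all genes): psma4, psmb1, psmb6, psmc1b, psmc2, psmc3, psmc5, psmc6, psmd1, psmd3, psmd7, psmd12, ube2d2, ube2e3, ube2l3a and ube2v1. Of these, 12 encode 26S subunits, among them 5 of the 7 psmc genes. MO-2 was higher in 4 of 4 pairs for 2 members, psmb12 and ube2d3 (7.65% of all genes). MO-1 was lower in 4 of 4 pairs for 4 members, psmd8, uba3, ube2d2 and ube2r2 (3.79% of all genes), and MO-2 was lower than MO-1 for 4, psmc2, psmc3, psmd3 and psmd10 (3.45%).

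The 26S genes were lower with MO-2 mainly in the pairs numbered 3 and 4. The median difference of MO-2 from control over the 41 genes was 0.04 and -0.03 in the pairs numbered 1 and 2, and -0.29 and -0.26 in those numbered 3 and 4. In these 4 pairs, 19, 24, 33 and 37 of the 41 genes were lower, while the median over all genes stayed between -0.05 and 0.04. The families differed in the first pairs. The 7 psmc genes gave medians of -0.09, -0.17, -0.44 and -0.26, with 6 lower in each pair. The 14 psmd genes gave medians of 0.12, -0.02, -0.28 and -0.25. The ube2 genes gave medians of -0.04, -0.03, -0.18 and 0.00. The MO-1 medians of the 41 genes were 0.08, -0.05, 0.17 and -0.03. The MO-2 median over all arrays, -0.11, was -0.02 without control replicate 3, -0.06 without MO-2 replicate 4, -0.17 without control replicate 1 and -0.05 with array weights.

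**Figure D4:**
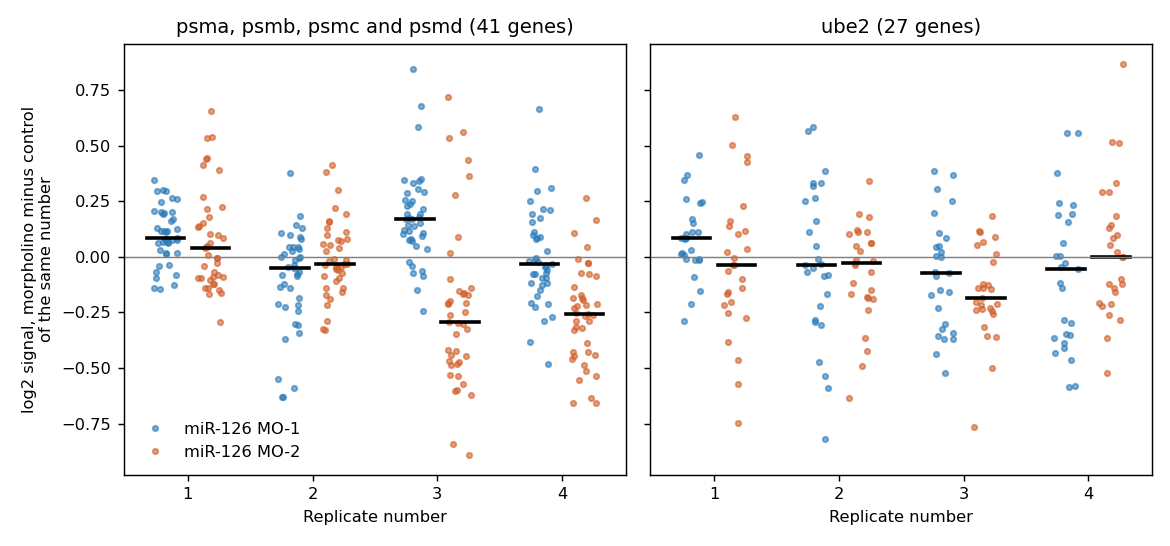
Difference of each morpholino array from the control array of the same replicate number in log2 units, for the 41 psma, psmb, psmc and psmd genes (left) and the 27 ube2 genes (right); each point is a gene and each bar the median. With MO-2 the median of the 41 genes was near 0 in pairs 1 and 2 and -0.29 and -0.26 in pairs 3 and 4.

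Between the morpholinos, MO-2 was lower than MO-1 for 63 of 84 genes (median -0.10, against -0.01 for all genes), for 37 of the 41 psma to psmd genes and for all 15 psma and psmb1 to psmb7 genes, with 0 called. By pair the median of the 41 genes was -0.08, 0.15, -0.42 and -0.28. This difference rested in part on the highest array: without MO-1 replicate 3, 24 of the 41 were lower and the median was -0.02.

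All 23 skeletal muscle markers had higher means with MO-2 than control (median 0.66), though 0 passed the limma test, adjusted or at an unadjusted p under 0.05, and their summed level was -0.37, 0.49, -1.68 and 0.59 in control, -1.12, 0.75, -1.25 and 0.75 with MO-1, and -0.06, 0.80, -0.06 and 1.15 with MO-2. The array with the lowest 26S level, MO-2 replicate 4, had the highest muscle level, and the arrays with the highest 26S level, MO-1 replicate 3 and control replicate 3, had the lowest muscle levels. The remaining arrays did not keep this order. MO-1 replicate 1 and MO-2 replicate 2, with muscle levels of -1.12 and 0.80, both had a 26S level of -0.02. The summed level of 31 proliferation genes was -0.10, 0.01, 0.20 and -0.12 in control, 0.08, -0.21, 0.30 and -0.16 with MO-1, and 0.09, -0.02, 0.18 and -0.25 with MO-2, and so had its highest array in MO-1 replicate 3 and its lowest in MO-2 replicate 4 as well. The 3 psmg genes (0.50 and -0.58) and 14 genes of the anaphase-promoting complex (0.29 and -0.31) had these same extreme arrays. The 25 cullin ligase genes did not. The part of any of these in the proteasome values was not tested.

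**Figure D5:**
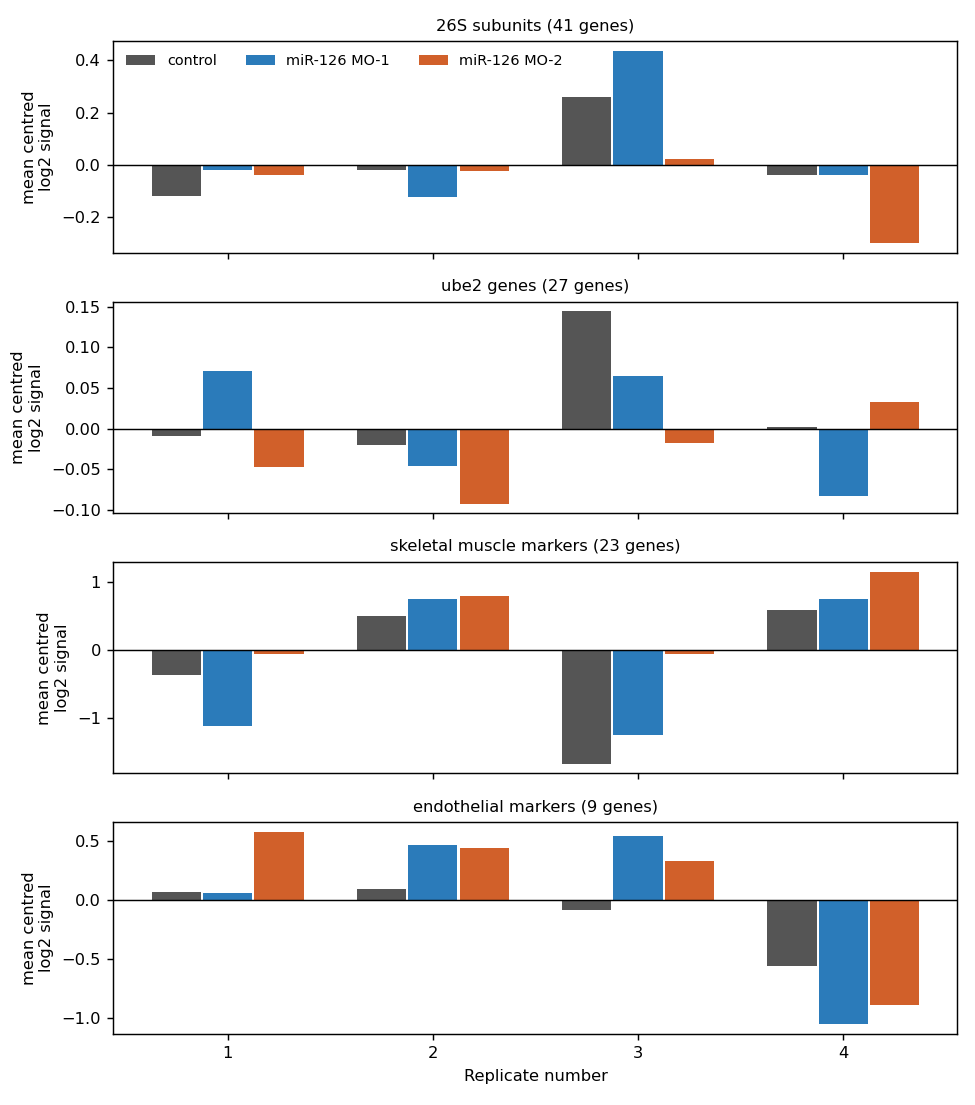
Mean centred log2 signal per array for the 41 psma to psmd genes, the 27 ube2 genes, 23 skeletal muscle markers and 9 endothelial markers, by replicate number and group (bars, 1 array each; the scales differ between panels). The 26S level was highest in MO-1 replicate 3 (0.44), where the muscle level was -1.25, and lowest in MO-2 replicate 4 (-0.30), where the muscle level was 1.15.

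Replicate number was then tested with the group in the fit. Of the 84 members 10 differed between numbers by limma's F test at an adjusted p under 0.05 (11.9%, against 13.2% of all genes): psmb1, psmc1a, psmd1, psmd3, psmd10, psmd12, psmg2, ube2d1b, ube2e3 and psmc3ip. The share of members was near that of all genes. psmd12, a cap subunit, had means of 9.10, 9.04, 9.84 and 9.53 under numbers 1 to 4 (limma, adjusted p = 0.00953), with the number 3 arrays the highest. psmd10, the chaperone of the ATPase ring also called gankyrin, had means of 8.26, 8.17, 8.81 and 8.14 (limma, adjusted p = 0.0276).

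Arrays numbered 4 were compared with the others. The contrast was chosen because these arrays stood apart in endothelial signal and in control probe sets in earlier results of these data. In this contrast 9 members fell (4.77% of all genes) and 1 rose (6.63% of all genes), and the median of the 84 was -0.12 against -0.03 for all genes. psmb1 fell by 0.80 (SE 0.14, limma, adjusted p = 0.00386), and psmb6 by 0.68 (SE 0.18, limma, adjusted p = 0.0317). psmc1a, an ATPase subunit, measured 9.03, 9.07, 9.10 and 8.69 in control, 9.10, 8.85, 9.39 and 8.49 with MO-1, and 9.16, 9.14, 9.11 and 8.21 with MO-2. All 3 arrays numbered 4 lay below the other 9 for psmc1a, which fell by 0.64 (limma, adjusted p = 0.0113), while its paralog psmc1b differed by -0.12. Further probe sets of psmc1b had the opposite sign, at 0.13 (mean signal 7.91) and 0.06 (mean signal 3.16).

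The chaperone psmg2 fell by 0.71, from means of 7.72, 7.54 and 7.71 under numbers 1 to 3 to 6.95 under number 4 (limma, adjusted p = 0.00834). The immunoproteasome subunit psmb10 fell by 0.53 and uba2 by 0.45, both close to the threshold (limma, adjusted p = 0.0493 and adjusted p = 0.0497). Of the conjugating enzymes, ube2e3 fell by 0.53 (limma, adjusted p = 0.0124). Its other probe set, of similar mean signal (8.96 against 9.06), differed by -0.27 and was not called (limma, adjusted p = 0.224). ube2nb, which builds chains used in signalling, fell by 0.51 (limma, adjusted p = 0.0321), while its paralog ube2na differed by -0.15. The prefix match psmc3ip fell by 0.91 (limma, adjusted p = 0.00277), and the other, dimmer probe set of that gene differed by -0.15.

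ube2d1b was the member that rose, by 0.63 (SE 0.14, limma, adjusted p = 0.0125). It measured 6.33, 6.26, 6.35 and 7.09 in control, 6.24, 6.31, 6.35 and 6.51 with MO-1, and 6.30, 6.24, 6.22 and 7.15 with MO-2. The number 4 array was the highest in each group, by less with MO-1, and its paralog ube2d1a differed by -0.25. All 3 arrays numbered 4 lay below the other 9 for 7 members (4.74% of all genes): psma8, psmb1, psmc1a, psmg2, ube2e3, ube2nb and psmc3ip. The endothelial, muscle and epidermal levels of these arrays are given above. Their differences between the 3′ and 5′ control probe sets of acta1, a skeletal muscle actin, were 2.57 to 2.76, against 1.97 to 2.42 in the other 9. The same difference for gapdh was 1.76 to 2.09 in these arrays and 0.78 to 1.82 in the other 9, which overlapped. The part of any of these in the changes was not tested, and the contrast was chosen with the endothelial and control probe set values known. Without MO-2 replicate 4, 2 members fell, psmb1 and psmc3ip, and 0 rose.

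A gene can have several probe sets. The 84 genes had 101, and 17 further probe sets of 14 genes were left out of the counts. With MO-2, 9 of the 17 had the sign of the representing probe set, and 14 of 17 did for the arrays numbered 4. A second probe set of uchl5 gave -0.28 with MO-2 beside -0.30, one of ube2ql1 gave -0.46 beside -0.38, and one of psmd1 gave -0.18 beside -0.32. Among those of opposite sign with MO-2, ube2e3 gave 0.12 beside -0.08, psmg1 0.07 beside -0.09 and ube2s -0.08 beside 0.07. In the arrays numbered 4 this second probe set of psmg1 fell by 0.60 and was called (limma, adjusted p = 0.0358). The representing one differed by -0.51 and was not called (limma, adjusted p = 0.100). The further probe sets of psme3ip1 were all of opposite sign with MO-2, and all of the same sign in the arrays numbered 4.

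The rest of the pathway showed 0 called genes in every comparison of groups. With MO-2, lower means were found for 5 of 11 ubiquitin genes and ubiquitin-like genes, 8 of 15 genes of proteasome assembly, receptors and transcriptional control, 13 of 16 genes of p97 and its cofactors, 16 of 31 deubiquitinating enzymes, 18 of 25 cullin ligase genes, 7 of 14 genes of the anaphase-promoting complex and 20 of 32 single-chain ligases. vcp encodes p97, the ATPase that extracts ubiquitinated proteins and passes them to the proteasome. It was 10.47 ± 0.15 (SD, n = 4) in control arrays, 10.27 ± 0.31 in MO-1 arrays and 9.94 ± 0.16 in MO-2 arrays, a difference of -0.52 with MO-2 (SE 0.16) that did not pass after adjustment. ubb, a polyubiquitin gene, differed by -0.42 with MO-2 (SE 0.22), and the ligase gene smurf2 by -0.42 (SE 0.21). Among the single-chain ligases pias4b had a larger absolute difference than smurf2. These genes were named for the size of their differences, and other list genes were higher with MO-2, such as cand1 of the cullin ligases (0.21, SE 0.13).

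In the arrays numbered 4, 4 of the 144 pathway genes outside the 84 fell (2.78%, against 4.77% of all genes) and 3 rose (2.08%, against 6.63%). sumo2b, a ubiquitin-like modifier, fell by 0.76, the deubiquitinating enzyme otub1b by 0.64, fbxo5, an inhibitor of the anaphase-promoting complex, by 0.63, and the ligase ubr7 by 0.58. cul1b, a cullin scaffold, rose by 0.72, and the ligases rnf11a and wwp2 by 0.75 and 0.57. All 7 passed limma's adjusted threshold.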

How the data were processed

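RNA of sorted GFP-positive cells was measured on 12 one-colour arrays. The authors deposited RMA values, 1 log2 signal per probe set and array; the submitters' processing notes name RMA without a version, and the range of the values is the basis for the log base. Of 15617 probe sets, 115 control probe sets were left out and 15502 tested with no filter on signal. The platform annotation gave 10795 of these 1 symbol, 135 several and 4572 none; 1 symbol was updated. All 84 members matched RefSeq by gene number (GRCz12tu, used for names and neighbours only), and that table holds 108 protein-coding genes with these prefixes. Tables held 0 value columns of other samples.

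Group means were compared with limma 3.58.1 (R 4.3.3; lmFit, eBayes; 12 arrays, 13.14 degrees of freedom, two-sided, Benjamini-Hochberg over 15502 probe sets, threshold 0.05). Replicate numbers and number 4 against 1 to 3 were tested in a fit with group and number. On values centred on group means, the 12 same-numbered pairs of arrays correlated at 0.223 to 0.626 (median 0.425, against -0.17 for the 36 other pairs), and each of the 12 arrays correlated best with an array of its own number. The pairing comes from the labels' numbers, and blocked counts are given where they move. Standard errors of group differences are those of the fit without the block unless the block is named. The labels call the replicates biological and do not say whether embryos came from separate clutches.

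The fits were tested on simulated data with noise drawn independently for each array. These data lack the correlation of same-numbered arrays, so they do not show how the fits behave under it. Members, gene lists and the tests of replicate number were chosen with earlier results of these data known. Members were named by role, as catalytic or immunoproteasome subunits, by signal and spread, and by the smallest p or largest difference in each comparison and family; psmd12, psmd10 and the genes counted by pairs or by groups that do not overlap were named as the members of those counts. List genes outside the 84 were named after their values were seen. Alternatives were the replicate block, a filter at a mean log2 of 6, quantile normalization, an intensity trend, array weights, the mean of all probe sets of a gene, and leaving out each array or the arrays numbered 4; leaving out the arrays numbered 3 was added after seeing the data.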

Additional observations from a re-analysis of the deposited data

Results flagged for a closer look

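Of 156 sets of 4 arrays (52 named genes in 3 groups), 13 held an array far from the other 3. For a set chosen without regard to its values, chance gives about 1 in 20. That rate is no measure for this count, since many of the genes were named by their spread, differences or calls in these values. The genes also share the same arrays. In control, replicate 3 was high for psma5 (10.61, the others at most 10.07), psma2a (10.09, the others at most 9.78) and psmg3 (7.33, the others at most 6.87), and replicate 4 was high for psmb8a (5.55, the others at most 5.12) and ube2d1b (7.09, the others at most 6.35). With MO-1, replicate 3 was high for psmb13a (6.21, the others at most 5.38), psmd3 (9.46, the others at most 8.63) and psmc3 (10, the others at most 9.71). With MO-2, replicate 4 was low for psma6l (7.56, the others at least 8.07), psmg2 (6.66, the others at least 7.67) and psmc1a (8.21, the others at least 9.11), and high for ube2d1b (7.15, the others at most 6.30) and ube2l3b (7.71, the others at most 7.41). The 13 flagged values fell repeatedly on the same few arrays, all numbered 3 or 4, and naming genes by their calls between numbers favoured such arrays.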

How the results depend on the processing

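With the replicate block the counts of called members in the 4 comparisons of groups were 0, as without it, and the pairing changed no call; medians and counts of lower genes were those of the balanced fit (62 members lower with MO-2). With quantile normalization, 9 of the 41 26S genes were lower with MO-1 in place of 16. Array weights gave 4424 probe sets, 24 members and 11 of the 26S genes that differed between numbers (1873, 10 and 6 with equal weights), and 2600 probe sets and 3 higher members for number 4 (1574 and 1). Without the arrays numbered 4, 1 probe set was called with MO-2 and 1 with both morpholinos, and 26 of the 41 were lower with MO-2; without those numbered 3, 30 were.

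Leaving out 1 array at a time, 26 to 61 members and 5 to 32 of the 26S genes were lower with MO-1 (5 without control replicate 3, 32 without MO-1 replicate 3), 44 to 67 and 22 to 35 with MO-2, 35 to 65 and 13 to 34 with both (13 without control replicate 3), and 45 to 66 and 24 to 38 between the morpholinos. Between numbers 1081 to 1922 probe sets, 2 to 11 members and 1 to 6 of the 26S genes were called, and for number 4 581 to 1805 probe sets, 2 to 9 members lower and 0 to 1 higher; the lowest member counts came without MO-2 replicate 4. Only psmb1 and psmc3ip kept their number 4 call under all alternatives run. No called value turned its direction; uncalled medians did. With MO-1 the 26S median was 0.03 and ran from -0.09 to 0.13 over the arrays left out, below 0 if MO-1 replicate 3, control replicate 1 or all arrays numbered 3 were left out; the members' median was -0.01 (-0.09 to 0.08), and above 0 under 3 other settings, among them quantile normalization (0.03) and array weights (0.02), and without the arrays numbered 4. With both morpholinos the medians were -0.03 and -0.03, above 0 without control replicate 3 (0.05 and 0.01), and for the 26S genes also without MO-2 replicate 4. The cause was not tested. The MO-2 medians stayed below 0 under all alternatives run.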

Other observations

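RefSeq holds 24 further genes with these prefixes that were not analysed here, among them the deubiquitinating cap subunit psmd14, the alpha subunit psma3, and ube2c, which works with the anaphase-promoting complex.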
